A study of Mus musculus with 10 samples.

Results

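The 10 genes described here encode transcription factors and cofactors of blood stem cells: Tal1, Lyl1, Lmo2, Gata2, Runx1, Erg, Fli1, Hlf, Mecom and Mllt3. They were chosen by name, as all array probes whose only gene symbol in the platform annotation, current or older, is one of these, which gave 20 of the 45281 probes. RNA came from LSK cells of 5 LysM-KI mice and 5 control mice, 1 Illumina array per mouse. LSK cells are sorted from bone marrow as lineage-negative cells with Sca1 and cKit on their surface, a fraction rich in blood stem cells and multipotent progenitors. Both groups carry LysMCre as their strain, in which Cre is driven by Lyz2, the lysozyme gene of myeloid cells, and the mice were 9 to 16 weeks old. The labels call the mutants LysM-KI without naming the knocked-in allele, and they do not say which alleles the controls carry. No value here shows in how many LSK cells Cre acted. On RefSeq's GRCm38.p6 the genes lie at chr4:115056426-115071755 (Tal1), chr8:84701423-84704716 (Lyl1), chr2:103957903-103981878 (Lmo2), chr6:88193891-88207032 (Gata2), chr16:92601466-92826074 (Runx1), chr16:95359169-95586600 (Erg), chr9:32422204-32543432 (Fli1), chr11:90336535-90390917 (Hlf), chr3:29951296-30509759 (Mecom) and chr4:87769925-88033407 (Mllt3). The comparison asks how LSK cells of LysM-KI mice differ in expression from those of controls.

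Tal1 and Lyl1 are basic helix-loop-helix factors that bind DNA with E proteins, and Lmo2 is a LIM-domain bridge that joins them to GATA factors and to Ldb1. Together with Gata2, Runx1 and the ETS factors Erg and Fli1 they are known to occupy many of the same enhancers in mouse blood stem and progenitor cells, their own genes among them. Hlf, Mecom and Mllt3 are known for their part in keeping blood stem cells, as a PAR bZIP factor, a zinc finger regulator and a chromatin reader of the machinery for transcript elongation.

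Mecom, Runx1 and Mllt3 each have more than 1 start site and probes tied to more than 1 sequence record. For Mecom and Runx1 the sequence before each start is shown. Mecom makes a long form, which begins at the Mds1 exons, and a shorter one known as Evi1. Runx1 is transcribed from a distal promoter, the main one in blood stem cells, and from a proximal promoter. The windows hold the 250 bases before each start in RefSeq on build GRCm38.p6, 5′ to 3′ on the gene's strand. Capitals mark GATA and the ETS core GGAA on either strand, with overlapping matches counted each.
Mecom, upstream start, chr3:30509760-30510009, minus strand: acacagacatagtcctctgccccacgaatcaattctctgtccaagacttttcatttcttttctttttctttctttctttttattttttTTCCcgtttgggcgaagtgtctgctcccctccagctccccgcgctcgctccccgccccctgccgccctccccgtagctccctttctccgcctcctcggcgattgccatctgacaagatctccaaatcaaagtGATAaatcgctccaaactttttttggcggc
Mecom, downstream start, chr3:30013205-30013454, minus strand: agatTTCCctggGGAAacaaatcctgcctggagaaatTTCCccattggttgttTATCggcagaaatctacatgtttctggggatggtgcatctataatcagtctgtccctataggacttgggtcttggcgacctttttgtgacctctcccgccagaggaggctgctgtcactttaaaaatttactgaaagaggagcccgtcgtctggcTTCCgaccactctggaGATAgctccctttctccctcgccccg
Runx1, upstream start, chr16:92826075-92826324, minus strand: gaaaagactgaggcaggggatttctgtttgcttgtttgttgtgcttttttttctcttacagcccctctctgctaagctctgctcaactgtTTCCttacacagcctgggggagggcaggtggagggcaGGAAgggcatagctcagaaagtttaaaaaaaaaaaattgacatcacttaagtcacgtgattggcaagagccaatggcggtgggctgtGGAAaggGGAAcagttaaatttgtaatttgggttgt
Runx1, downstream start, chr16:92697330-92697579, minus strand: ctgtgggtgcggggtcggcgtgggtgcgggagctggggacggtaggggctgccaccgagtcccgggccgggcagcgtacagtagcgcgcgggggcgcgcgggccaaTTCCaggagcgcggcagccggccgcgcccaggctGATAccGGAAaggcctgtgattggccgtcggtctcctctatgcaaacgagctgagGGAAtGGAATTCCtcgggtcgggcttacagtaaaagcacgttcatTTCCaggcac
The downstream Mecom window held 2 GATA and 4 GGAA matches, and the upstream one 1 of each. The upstream Runx1 window held 4 GGAA matches and the downstream one 6, with 1 GATA match. The RUNX core TGTGGT, searched on both strands too, was in 0 of the 15 windows that RefSeq gave for 8 of the 10 genes, all but Lmo2 and Fli1. Of all 32851 such windows of mouse genes, 53.6% held GATA, 93.4% held GGAA and 14.0% held TGTGGT. Among the 15 member windows, 8 held GATA and 13 held GGAA. These matches describe the letters only and say nothing of binding.

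All values below are log2 intensities after background correction and quantile normalization. A probe counts as detected on an array at a detection p under 0.05 and as kept when it is detected on at least 5 of the 10 arrays. Each of the 10 genes had a kept probe, and 16 of their 20 probes were kept. The kept probe with the highest mean stands for its gene. Between 15234 and 18801 probes were detected per array, 17780 ± 858 on LysM-KI and 16632 ± 789 on control arrays (SD, n = 5 each, exact two-sided permutation p = 0.0397). Control replicate 4 stood apart on the first principal component (22.0% of the variance) and LysM-KI replicate 2 on the second (14.2%). Control replicate 4 and LysM-KI replicate 4 had Xist, a transcript of female cells, at 11.81 and 11.69, against at most 7.08 on the other arrays. Kit, which defines the gate, was detected on all 10 arrays, and no probe was matched to Ly6a, the gene of Sca1. Of the 6 monocyte and macrophage markers 0 were kept.

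No transcription factor of the group passed the adjusted threshold. Limma called 0 of 17245 kept probes (0% of those tested, smallest adjusted p = 0.392), and thus 0 of the 16 member probes. At an unadjusted p under 0.05 it gave 922 probes, 5.35% of those tested, of which 587 (3.40% of those tested) had higher and 335 (1.94%) lower levels in LysM-KI cells. The balance of the directions depended on the scaling, with 794 higher and 178 lower under median scaling and 430 higher and 450 lower under cyclic loess. Of the 16 member probes 1, that of Fli1, was among the lower ones. Of the 16 member probes 9 lay above 0, against 53.4% of all kept probes (47.2% with cyclic loess and 62.8% with median scaling), and 7 of the 10 brightest probes were detected on all 10 arrays, against 62.6% of the brightest probes of all genes. The brightest probes of 6 genes lay above 0 and those of 4 below, with a median log2 fold change of 0.13, beside 0.05 over the brightest probes of all 8896 genes, 55.4% of which lay above 0. In each of the 10 genes the groups overlapped, while 0.574% of all kept probes had every LysM-KI array above every control array and 0.336% had it below. Fewer cells of a type and less RNA per cell cannot be told apart in such bulk samples.

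**Figure D1:**
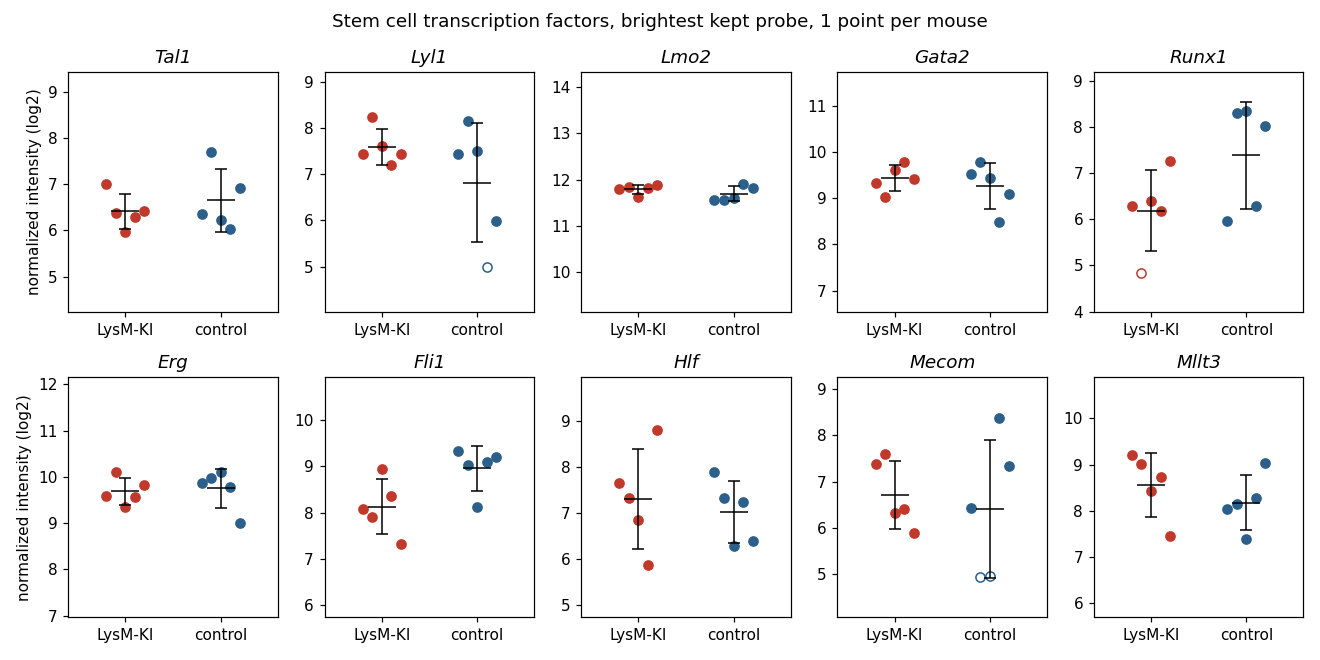
Normalized log2 intensity of the brightest kept probe of each of the 10 genes, LysM-KI left and control right in each panel, 1 point per mouse. Open points are arrays where the probe was not detected, bars show mean ± SD (n = 5), and every panel spans the same number of log2 units. Lmo2 spans 0.35 log2 units over the 10 arrays and Mecom 3.43, and the groups overlap in every panel.

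Fli1, an ETS factor needed for megakaryocytes and for the blood vessel and stem cell programmes, had the smallest unadjusted p of the group. Its only probe was at 8.08, 7.91, 8.95, 8.36 and 7.33 in LysM-KI replicates 1 to 5, against 9.34, 9.04, 8.12, 9.10 and 9.20 in control replicates 1 to 5. All 5 LysM-KI arrays lay below the control mean, and LysM-KI replicates 3 and 4 and control replicate 3 lay inside the range of the other group. Its log2 fold change was -0.83 (SE 0.34, limma unadjusted p = 0.0334, adjusted p = 0.881), a level 0.562-fold that of control with a 95% interval from 0.333 to 0.947. The probe was detected on all 10 arrays, and its intensity before correction was 2.29 to 6.37 times the background. Without control replicate 3, which lay 0.916 below the next control array, the log2 fold change was -1.04 (limma unadjusted p = 0.00929, adjusted p = 0.709). Across the 10 single arrays left out, the unadjusted p ranged up to 0.0872.

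Erg, the ETS factor closest to Fli1 in sequence and needed to maintain blood stem cells, had a different reading. It was at 9.59, 10.10, 9.34, 9.57 and 9.83 in LysM-KI replicates 1 to 5 and at 9.87, 9.98, 10.11, 9.79 and 9.01 in control replicates 1 to 5. The groups covered nearly the same range, and control replicate 5 was the lowest. LysM-KI and control cells differed by -0.07 on the log2 scale (95% interval -0.66 to 0.52, limma adjusted p = 0.988). The other Erg probe was not detected on any array, so it gave no fold. Fli1 and Erg are also genes of endothelium. Of 12 endothelial and stromal markers 5 were kept, and their summed linear level was 756 to 1158 on LysM-KI and 887 to 1514 on control arrays. Egfl7, the brightest of the 5 at means of 9.23 in LysM-KI and 9.49 in control cells, weighed most in this sum. Pdgfrb and Sparc of that list had log2 fold changes of -1.04 (SE 0.33) and -1.40 (SE 0.57). Each was detected on 2 LysM-KI and 4 control arrays, and they were at -0.40 and -0.66 without background correction. Ramp2 was at 0.25 (SE 0.29), detected on 3 LysM-KI and 2 control arrays. Esam and Egfl7, which progenitors also express, were at 0.87 (SE 0.73) and -0.25 (SE 0.28). Esam was detected on 5 LysM-KI and 3 control arrays and was at 0.38 without background correction. The endothelial receptor genes Kdr and Tie1 and the collagen gene Col1a1 were not detected on any array. The part of such cells in the Fli1 values was not tested.

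Runx1, the DNA-binding subunit of core-binding factor, gave differing readings from its 2 kept probes. Its brighter probe, ILMN_2589107, was at 6.28, 4.84, 6.38, 6.18 and 7.26 in LysM-KI replicates 1 to 5 and at 5.97, 8.31, 8.34, 6.29 and 8.02 in control replicates 1 to 5. Control replicates 2, 3 and 5 lay above every LysM-KI array, and the other two lay among them. All 5 LysM-KI arrays lay below the control mean, by -1.20 on the log2 scale on average (SE 0.58, limma unadjusted p = 0.0634, adjusted p = 0.934). The other probe, ILMN_2619773, was at 5.99, 6.11, 6.65, 7.60 and 6.13 in LysM-KI replicates 1 to 5 and at 8.36, 5.97, 7.27, 5.43 and 4.79 in control replicates 1 to 5. Control arrays held both its highest and its lowest values. It differed by 0.13 on the log2 scale (95% interval -1.26 to 1.52), a direction that turned without background correction (-0.028) and with cyclic loess (-0.0055). The platform ties the brighter probe to a RefSeq transcript and the other to a GenBank record, and their places relative to the starts shown above were not analysed here. Without background correction the brighter probe was at -0.68, and the mean of both probes gave -0.53.

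Lyl1, the close relative of Tal1, was at 7.44, 8.24, 7.62, 7.20 and 7.43 in LysM-KI replicates 1 to 5, against 7.43, 8.15, 7.49, 4.99 and 5.99 in control replicates 1 to 5. Its LysM-KI arrays lay between 7.20 and 8.24, whereas control replicates 4 and 5 were low, and replicate 4 was the only array of the 10 where Lyl1 was not detected. The log2 fold change was 0.77 (SE 0.54, limma adjusted p = 0.946), without control replicate 4 it was 0.32, and without background correction 0.37. Tal1, which is required to form blood cells, was at 7.01, 6.38, 5.96, 6.30 and 6.42 in LysM-KI replicates 1 to 5 and at 6.36, 7.70, 6.23, 6.03 and 6.93 in control replicates 1 to 5. Tal1 differed by -0.24 on the log2 scale (95% interval -0.998 to 0.525, limma adjusted p = 0.960). Control replicate 2 was the highest, and without it the value was 0.03. Of 8 erythroid markers 2, Car1 and Klf1, were kept. Their summed level was highest on control replicate 2, at 1541, against 93.7 to 535 on LysM-KI and 93.7 to 454 on other control arrays. Control replicate 2 was also the highest array for the sums of mature neutrophil markers (3599) and of mast cell and basophil markers (6546). Tal1 is an erythroid gene as well, and the part of erythroid RNA in its values was not tested.

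Lmo2, the bridge of the complex, was the steadiest of the 10. It was at 11.79, 11.84, 11.62, 11.82 and 11.88 in LysM-KI replicates 1 to 5 and at 11.56, 11.56, 11.61, 11.90 and 11.82 in control replicates 1 to 5. All 10 arrays lay within 0.35 log2 units. LysM-KI over control was 0.10 on the log2 scale, with 95% bounds of -0.33 and 0.53, or 0.795-fold and 1.44-fold. Its residual SD of 0.13 was smaller than that of most of the 403 kept probes within 0.5 log2 units of its mean, whose median was 0.21.

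Gata2, a zinc finger factor needed for blood stem cells to survive and expand, was at 9.32, 9.03, 9.61, 9.77 and 9.42 in LysM-KI replicates 1 to 5 and at 9.52, 9.79, 9.44, 8.48 and 9.09 in control replicates 1 to 5. The groups covered the same range but for control replicate 4, which was the lowest. Gata2 differed by 0.17 on the log2 scale (95% interval -0.46 to 0.79, limma adjusted p = 0.965), and without control replicate 4 it was -0.03. Gata2 is also a gene of mast cells and basophils. Of their 8 markers 5 were kept, with a summed linear level of 2162 to 5403 on LysM-KI and 1554 to 6546 on control arrays. Mcpt8, the brightest of the 5 at means of 11.17 in LysM-KI and 11.16 in control cells, weighed most in this sum. Log2 fold changes of the 5 went both ways. Prss34 was at -1.34 (SE 0.84) and Fcer1a at -0.20 (SE 0.38). Hdc was at 0.75 (SE 0.51), Cpa3 at 0.25 (SE 0.45) and Mcpt8 at 0.01 (SE 0.43). Mcpt4, of mature mast cells, was not detected on any array. The part of such cells in the Gata2 values was not tested.

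Hlf, a factor restricted largely to stem cells within blood, varied by 2.93 log2 units between mice. It was at 7.64, 7.33, 6.85, 5.87 and 8.80 in LysM-KI replicates 1 to 5, against 7.88, 7.33, 6.29, 7.24 and 6.39 in control replicates 1 to 5. Both the highest and the lowest value were in LysM-KI mice. Hlf differed by 0.28 on the log2 scale (95% interval -0.86 to 1.41, limma adjusted p = 0.971), and without LysM-KI replicate 5 it was -0.10.

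**Figure D2:**
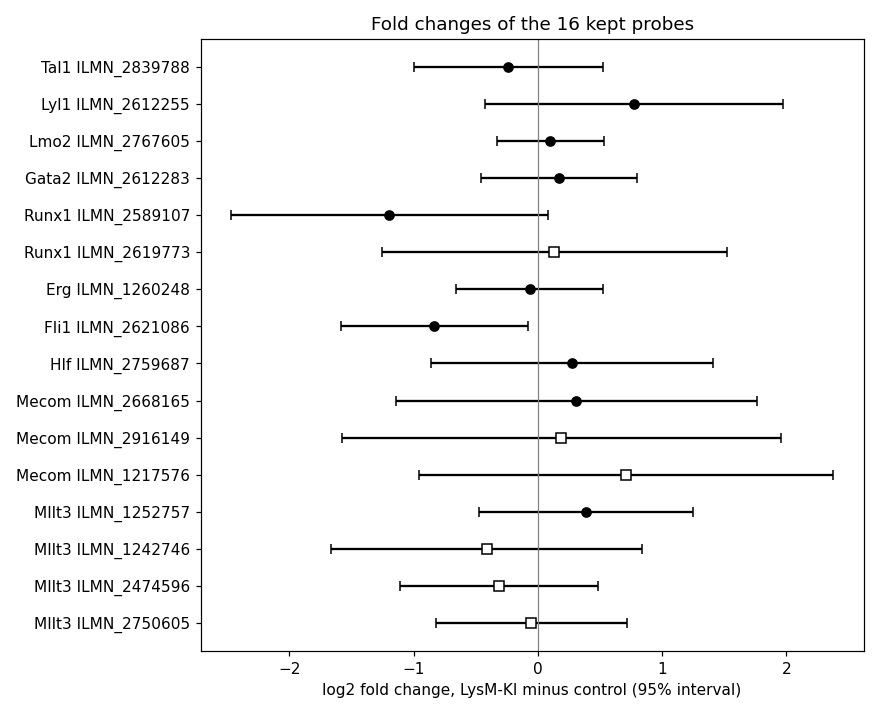
Log2 fold change, LysM-KI minus control, of the 16 kept probes, with 95% intervals of limma's model (n = 5 mice per group). Filled circles are the brightest kept probe of a gene and open squares its other kept probes. The interval of Fli1, from -1.59 to -0.08, is the only one that leaves out 0.

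Mecom, whose loss in mice empties the stem cell pool, ranged over 3.43 log2 units between mice on its brightest probe. Its brightest probe, ILMN_2668165, was at 7.39, 7.60, 6.32, 6.40 and 5.88 in LysM-KI replicates 1 to 5 and at 6.42, 4.95, 4.96, 8.38 and 7.33 in control replicates 1 to 5. The probe ILMN_1217576 was at 7.52, 7.90, 6.13, 6.27 and 5.87 in LysM-KI replicates 1 to 5 and at 5.13, 4.49, 4.82, 8.29 and 7.42 in control replicates 1 to 5. ILMN_2916149 was at 7.90, 7.31, 5.76, 5.86 and 6.45 in LysM-KI replicates 1 to 5 and at 4.96, 6.19, 4.86, 9.33 and 7.00 in control replicates 1 to 5. In all 3 probes LysM-KI replicates 1 and 2 and control replicates 4 and 5 were the 4 highest arrays, and control replicate 4 was the highest of all. The 3 probes were detected on 5 of 5 LysM-KI arrays and on 2 or 3 of 5 control arrays. Their log2 fold changes were 0.31, 0.71 and 0.19, in the order given, with 95% intervals from -1.14 to 1.76, -0.96 to 2.38 and -1.58 to 1.95 (limma adjusted p = 0.978, 0.953 and 0.988). Some control values were not told apart from background, so these differences rest partly on it. Their size rested on single arrays, and so did the direction of ILMN_2668165 and ILMN_2916149. ILMN_1217576 stayed above 0 with each array left out. Without control replicate 4 they were 0.80, 1.28 and 0.90, without control replicate 2 they were -0.055, 0.33 and 0.12, and without control replicate 3 they were -0.052, 0.41 and -0.21. Without background correction they were 0.057, 0.25 and -0.042.

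The agreement of the Mecom probes was compared with that of other probes of 1 gene. Over the 10 arrays ILMN_2668165 and ILMN_1217576 correlated at r = 0.951 (Spearman's rho 0.927), ILMN_2916149 and ILMN_1217576 at 0.849 (rho 0.806), and ILMN_2668165 and ILMN_2916149 at 0.804 (rho 0.721). The permutation p-values of r, adjusted over the 10 pairs of member probes, were 0.00100, 0.00740 and 0.0155, and those of rho were 0.00380, 0.0348 and 0.0685. Leaving out the 2 arrays farthest from the median gave r of 0.914, 0.775 and 0.808, and centring each group on its own mean gave 0.959, 0.865 and 0.804. Over all 7820 pairs of kept probes that share a gene, from 3429 genes, the median r was 0.17, 11.4% of pairs exceeded 0.8 and 36.8% were below 0. These pairs were not matched to the Mecom probes in spread or transcript. The residual SDs of the 3 Mecom probes exceeded those of 79.6% to 92.6% of kept probes within 0.5 log2 units of their means. Probes of 1 array share its RNA and its amplification, so their agreement speaks of the same sample and not of separate mice. The platform ties these 3 probes to 1 RefSeq transcript of Mecom. The remaining probe, ILMN_1228051, is tied to another transcript. It was detected on 2 LysM-KI arrays and 1 control array, and was at 8.81 in control replicate 2 and at 4.44 to 5.64 elsewhere.

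**Figure D3:**
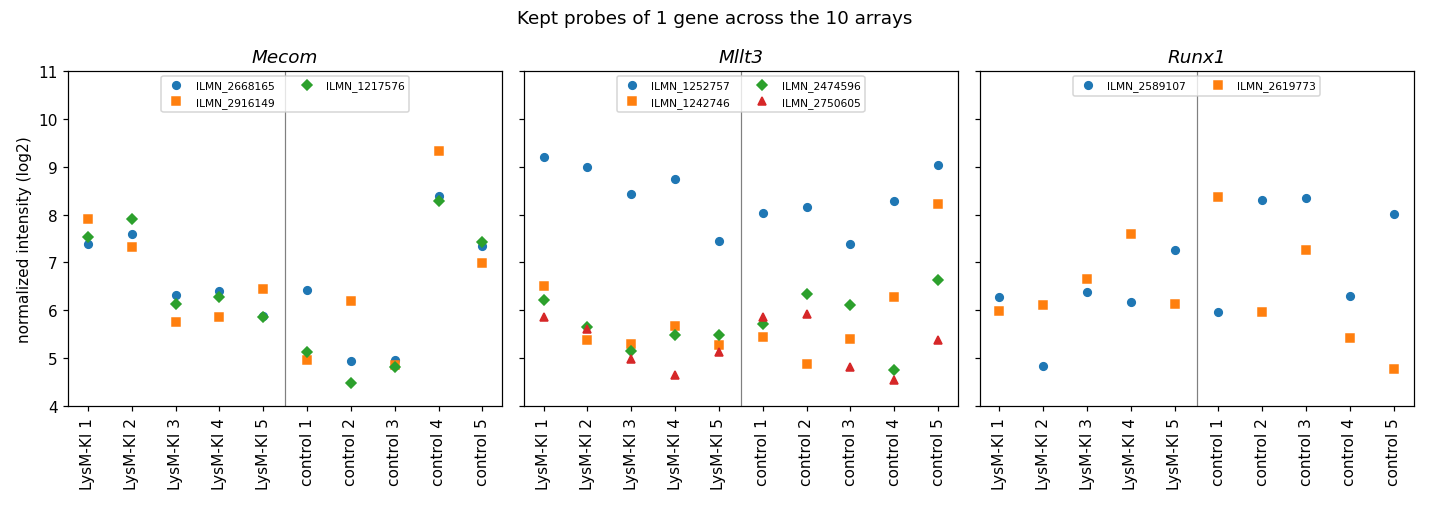
Normalized log2 intensity of each kept probe of Mecom, Mllt3 and Runx1 on the 10 arrays, LysM-KI replicates left of the line and control replicates right of it. The 3 Mecom probes move together over a range of up to 4.47 log2 units, while the 2 Runx1 probes correlate at -0.23.

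Mllt3, also called Af9, a reader of acylated histones that recruits DOT1L and elongation factors, had 6 probes, of which 4 were kept. The brightest, ILMN_1252757, was at 9.21, 9.00, 8.42, 8.74 and 7.44 in LysM-KI replicates 1 to 5 and at 8.03, 8.15, 7.38, 8.27 and 9.04 in control replicates 1 to 5. The highest LysM-KI and control arrays were close, and so were the lowest. It differed by 0.39 on the log2 scale (95% interval -0.47 to 1.25, limma adjusted p = 0.950). The other 3 kept probes had the opposite sign, at -0.41, -0.31 and -0.05, and the mean over the 4 was -0.10. Of the 6 pairs of kept Mllt3 probes 0 passed the adjusted threshold, with r from -0.03 to 0.60, and the single Runx1 pair was at -0.23 (rho -0.31, adjusted permutation p = 0.633 for r). Of the probes not kept, ILMN_3035795 was detected on 3 LysM-KI arrays and 1 control array, where it was at 7.77 in control replicate 3, and ILMN_1256890 on control replicate 4 alone, at 9.20.

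For each of the 7 factors detected on all 10 arrays, the gene most like it in level across the arrays was looked up among 5560 other genes detected on all of them. These were Ints7 for Tal1 (Pearson's r 0.862 over the 10 arrays), Vamp7 for Lmo2 (0.930), Slc25a38 for Gata2 (0.962), Mbp for Erg (0.916), Atf7ip for Fli1 (0.912), Ppa2 for Hlf (0.891) and AI413582 for Mllt3 (0.904). Spearman's rho of these pairs ran from 0.754 to 0.912. Each r is the highest of 5560 values, so no p is given.

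Partners and inhibitors of the factors were compared next, from lists of textbook members. Of 13 complex partners 12 were measured, 6 above and 6 below 0, with a median log2 fold change of 0.03. Ldb1, which dimerises to join enhancers through Lmo2, was at 9.71 ± 0.26 in LysM-KI cells, against 9.25 ± 0.56 in controls (SD, n = 5 each). The difference of 0.46 on the log2 scale (SE 0.30) was 0.29 without control replicate 4. Ldb1 lay above the control mean in 5 of 5 LysM-KI mice. Its stabiliser Ssbp3 was at 8.12 ± 0.36 in LysM-KI cells, against 8.73 ± 0.21 in controls, a log2 fold change of -0.60 (SE 0.24, limma unadjusted p = 0.0298, adjusted p = 0.881), below the control mean in 5 of 5. Ldb1 and Ssbp3 thus lay on opposite sides of their control means, and neither passed the adjusted threshold. The corepressors Cbfa2t2 and Cbfa2t3 of the ETO family were at 0.94 (SE 0.70, and 0.44 without background correction) and -0.21 (SE 0.32). Of the Id inhibitors, which keep E proteins from DNA, only Id2 was measured, at -0.29 (SE 0.49). Of the 6 elongation and DOT1L partners measured of 10, 3 lay above and 3 below 0 (median -0.11), with Ell2 at -0.59 (SE 0.36), Ell at -0.29 (SE 0.23) and Aff1 at 0.31 (SE 0.25). The 3 Mecom corepressors measured of 5 had a median of -0.04.

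Family relatives of the factors and their known target genes were taken last. Of 18 relatives 9 were measured, 7 of them above 0 with Dbp counted, beside 55.4% of all genes. Their median log2 fold change of 0.39 was 0.17 without LysM-KI replicate 1, 0.22 without control replicate 3 and 0.20 without background correction. Over the 6 relatives detected on all 10 arrays, which leaves out Dbp, the median was 0.21. Dbp, a PAR bZIP relative of Hlf that follows the circadian clock, was at 5.78 ± 0.69 in LysM-KI cells, against 4.96 ± 0.44 in controls (SD, n = 5 each), and was detected on 4 LysM-KI arrays and 1 control array. It was kept mainly through its LysM-KI arrays, and its control level is that of background. The fitted 0.82 on the log2 scale (SE 0.36, adjusted p = 0.924 from limma) is therefore not a measured ratio, and it was 0.33 without background correction. The ETS genes Ets2, Etv6 and Gabpa were at 1.32 (SE 0.64), 0.41 (SE 0.32) and 0.32 (SE 0.29). Ets2 was at 0.78 without background correction and at 0.87 without LysM-KI replicate 2. Of 20 genes known as targets of the factors in blood 11 were measured, 10 of them above 0, beside 55.4% of all genes. Their median of 0.21 was 0.13 without control replicate 4, and 0.21 over the 9 targets detected on all 10 arrays. Among those above 0, Itga2b at 0.19 (SE 0.25) was detected on 5 LysM-KI and 2 control arrays. Itga2b was thus kept mainly through its LysM-KI arrays. Cd34, Meis1 and Myb were at 0.08, 0.07 and 0.04, and Ikzf1 was below 0 at -0.20. Counting the brightest probe itself, its sign was held by 1 of 3 kept probes for Meis1 and 2 of 3 for Kit and Myb. For Ikzf1 it was 3 of 5 and for Gfi1b 2 of 2. The targets were led by Gfi1, a repressor that restrains stem cell division, at 9.31 ± 0.36 in LysM-KI cells, against 8.38 ± 0.89 in controls, a log2 fold change of 0.93 (SE 0.41, limma unadjusted p = 0.0440, adjusted p = 0.928) that was 0.57 without control replicate 4. Next by limma's unadjusted p came Nfe2, a megakaryocyte and erythroid factor, at 0.51 (SE 0.32). The platelet chemokine gene Pf4 at 0.50 (SE 0.33) and Kit at 0.42 (SE 0.29) followed. Gfi1b, with a larger p, was at 0.45 (SE 0.84). Summed megakaryocyte and platelet markers, 5 of 8 kept, were 836 to 1376 on LysM-KI and 564 to 1661 on control arrays, with Gp1bb and Gp6 not detected on any array. Their part in the Pf4 and Nfe2 values was not tested. Of 20 other stem cell factors 16 were measured, 8 above and 8 below 0 with a median of 0.01, and Nfix and Ikzf2 were at -0.69 (SE 0.42) and -0.69 (SE 0.52). The lists share genes. Gfi1, Gfi1b, Hhex, Meis1 and Myb are among both the targets and the other stem cell factors. Gfi1b is also a complex partner, and Etv6 is both a relative and another stem cell factor. In all 7 of these lists 0 members passed the adjusted threshold in either direction, and 0% of all kept probes did.

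**Figure D4:**
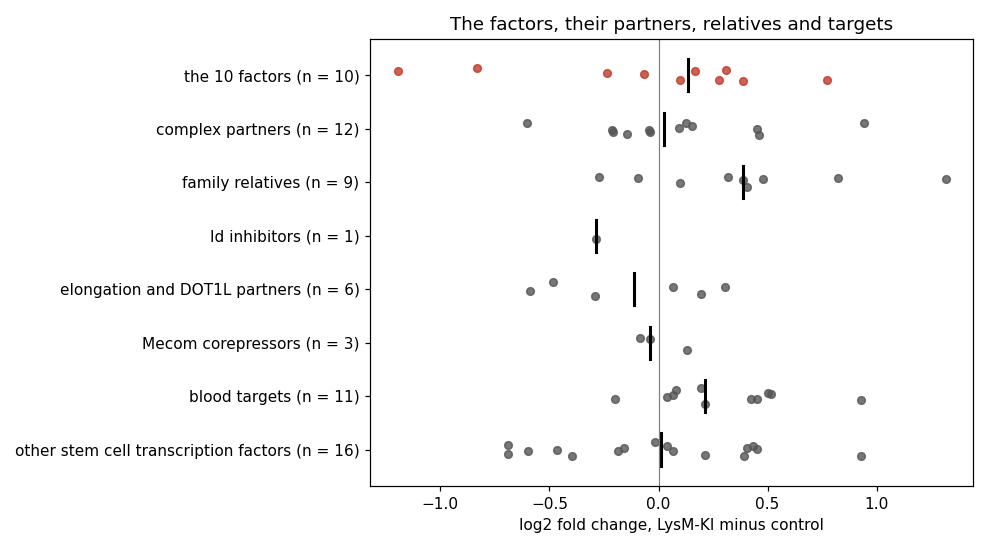
Log2 fold change, LysM-KI minus control, of the 10 factors (red) and of the measured members of 7 gene lists (grey), 1 point per gene from its brightest kept probe, with each list's median as a black bar. A gene on more than 1 list has a point in each. The medians lie between -0.29 for the single Id gene and 0.39 for the relatives, and 10 of 11 targets lie above 0, beside 55.4% of all genes. Itga2b among the targets and Dbp among the relatives were kept mainly through their LysM-KI arrays.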

How the data were processed

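The deposited non-normalized table holds a linear intensity per probe and array, and the authors deposited beside each intensity a fraction headed as a detection p. Each fraction goes up with intensity on its own array (rank correlation at least 0.990, against at most 0.851 with another), so 1 minus the fraction was taken as the detection p. The authors also deposited processed log2 values. How these were made is not given in the sources used here, but they lay within 0.0131 of quantile-normalized log2 intensities centred on each probe's median, and served as an alternative. Per the labels' protocols, RNA was amplified with a kit for picogram amounts. Columns of other samples numbered 0.

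Background correction and normalization used limma 3.58.1 (R 4.3.3): normexp with negative-control values inferred from the detection p, offset 16, quantile normalization and log2. Fold changes of dim probes such as those of Lyl1 and Dbp were larger than without background correction. Probes detected on 5 of 10 arrays (17245) were tested by limma's moderated test, two-sided, Benjamini-Hochberg adjusted, with 11.1 degrees of freedom, without pairing. The procedure was tested on simulated data. Correlations of probes used 100000 permutations. Symbols were updated through Entrez identifiers (99.8% matched); 34885 probes had 1 symbol, 18 several and 10378 none. The labels describe individual mice. Members, lists and tests were chosen with earlier results of these data known. Named genes include all members, up to 4 list members with the smallest p, and the closest gene to each factor detected on all arrays. Further list members were named for their sign, their detection or their weight in a sum. The number of arrays limits the precision.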

Additional observations from a re-analysis of the deposited data

Results flagged for a closer look

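Of the 40 groups of 5 arrays, 2 for each of the 20 member probes, 4 held an array far from the rest by Dixon's ratio, the gap to the nearest array over the group's range (limit 0.71). Chance flags about 1 in 20 groups. All 4 were control groups. In Fli1, control replicate 3 was low at 8.12, against 9.04 for the next control array (ratio 0.755). The Mecom probe ILMN_1228051 was high in control replicate 2, at 8.81 against 4.68 (ratio 0.968). The Mllt3 probe ILMN_3035795 was high in control replicate 3, at 7.77 against 4.98 (ratio 0.952), and the Mllt3 probe ILMN_1256890 in control replicate 4, at 9.20 against 4.57 (ratio 0.972). The last 3 probes were not kept, and each was detected on 1 control array only, the high one.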

How the results depend on the processing

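Under every setting and with each array left out, 0 probes passed the adjusted threshold (smallest adjusted p from limma 0.154, without control replicate 2), and Fli1 and Lmo2 kept their sign. Lyl1 and Runx1 ILMN_2589107 kept theirs wherever tested, which leaves out the setting of probes detected on all 10 arrays. Over the other settings Fli1 ran from -0.93 (cyclic loess) to -0.64 (the authors' processed values), and from -1.04 to -0.63 with arrays left out. Without control replicate 4 and LysM-KI replicate 2, Lyl1 was at 0.15 and Fli1 at -0.74. Runx1 ILMN_2589107 ran from -1.55 (without control replicate 1) to -0.86 (without LysM-KI replicate 2), and was at -0.67 on the authors' values. The median of all kept probes was 0.13 with median scaling and -0.029 with cyclic loess, and without a detection filter 46.0% of probes lay above 0. Values changed sign for Runx1 ILMN_2619773 without background correction (-0.028), with cyclic loess (-0.0055) and on the authors' values (-0.029), for Mecom ILMN_2916149 without background correction (-0.042) and on the authors' values (-0.043), and for Mllt3 ILMN_2750605 with median scaling (0.013). The cause was not tested. With 1 array left out, or control replicate 4 with LysM-KI replicate 2 or, an alternative added after the data had been seen, with LysM-KI replicate 4, Tal1 ran from -0.39 to 0.027, Gata2 from -0.11 to 0.30, Runx1 ILMN_2619773 from -0.38 to 0.63, Erg from -0.25 to 0.022, Hlf from -0.099 to 0.69, Mecom ILMN_2668165 from -0.055 to 0.88, Mecom ILMN_2916149 from -0.21 to 1.10, Mllt3 ILMN_1242746 from -0.70 to 0.14, Mllt3 ILMN_2750605 from -0.33 to 0.10 and Id2 from -0.61 to 0.070. The median of the 10 factors ran from -0.011 (without LysM-KI replicate 5) to 0.20 (median scaling). Unadjusted counts of 922 probes, 587 higher and 335 lower, became 1848, 984 and 864 without a detection filter, where more probes are tested, and 531, 320 and 211 for probes detected on all 10 arrays, where fewer are. Median scaling gave 178 lower and cyclic loess 450. Same-numbered arrays did not deviate together (r from -0.03 to 0.06 over 5 pairs). Such an r cannot exclude that the numbers pair mice, for instance by litter or day, and the labels do not say. Both arrays with high Xist, control replicate 4 (11.81) and LysM-KI replicate 4 (11.69), carry the same number. With the replicate block the unadjusted p of Fli1 was 0.0810 and 0 member probes were under 0.05. A chip block was not run because the headers give no chip. The kept Mecom probes, at 0.92 to 6.14 times the background, had residual SDs of 1.18 to 1.45, against 0.13 for Lmo2, at 22.4 to 34.2 times it.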

Other observations

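Levels differed more among control than among LysM-KI mice. The SD was larger in the control group for 13 of the 16 kept member probes and for 70.4% of all kept probes, with a median SD of 0.50 in LysM-KI and 0.69 in control arrays. Without control replicate 4 these were 12 of 16 and 61.9%, with a median control SD of 0.60. No test of this difference was run.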
